A study of Mus musculus with 8 samples.

Results

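The baseline described here is the RNA of whole hearts from 4 wild-type (WT) male mice aged 12 weeks, out of 8 hearts in a series built around overexpression of the prokineticin receptor PKR2. Each heart gave Cy3-labelled cRNA, made from 100 ng of total RNA, for 1 array of mouse oligonucleotide probes, so each value below is 1 mouse, and the hearts are called WT 1 to WT 4 in the order of their records. The 4 PKR2 arrays were not used and no genotype was compared. Neither the strain nor the time of day of dissection is given in the labels used here, and whole hearts mix all cell types of the organ. Of 27745 gene names on the array, 13738 had a probe well above background on all 4 WT arrays and were kept, which is 49.5%. Each kept gene is represented by its brightest such probe. Of these, 1791 are clones or predicted genes and were ranked but not named.

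A level is the log2 of the processed signal minus the log2 of the array's 75th percentile, so that 0 is the 75th percentile and each unit is a doubling. Levels of kept genes ran from -3.97 to 9.85 with a median of 0.57, and 8086 lay above 0, 790 above 5 and 78 above 8. Ranks count all 13738 features and are ranks of probe signal, not of transcript copies, because probes bind their targets unequally. In the 4221 genes with at least 2 kept probes, the median gap between the 2 brightest was 1.63 log2 units, 66.0% of the gaps were over 1 and 22.2% were over 3. A gap between neighbouring genes that is smaller than this carries no order of abundance.

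The arrays differed in scanning. The scan range given in the file headers was extended for WT 1 and WT 3, whose 75th percentiles were 664 and 687 units, and single for WT 2 and WT 4, at 40.9 and 116 units. Between 48.3% and 57.8% of spots were well above background. WT 2 limited the set of kept probes: 1900 probes had an unflagged spot above background on every array except WT 2, against 54 to 162 for each of the other arrays. Levels correlated across genes between hearts at r from 0.968 to 0.988, as a description over genes that share an array. The median absolute difference between WT 2 and WT 3 was 0.19, below that of any other pair of hearts, which ran from 0.29 to 0.42. Each heart was on its own slide, so slide and heart cannot be told apart.

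The adult heart contracts without rest. Its cardiomyocytes are packed with sarcomeres, in which myosin thick filaments pull on actin thin filaments when troponin binds calcium, and with mitochondria, which supply ATP mainly from fatty acids through the respiratory complexes and ATP synthase. Endothelial cells, fibroblasts, mural cells and macrophages surround the cardiomyocytes, and blood, valves and fat at the heart's surface come with a dissected organ. Clock genes cycle over the day in heart as in most tissues, with the E-box CACGTG as the element that CLOCK and BMAL1 bind.

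Promoters of 3 of the 30 genes of highest level are shown to set the sequence beside the expression: a red-cell gene with a TATA box, and 2 mitochondrial genes with CCAAT boxes. They cover 250 bases before and 50 after the RefSeq start site in GRCm38.p6, at chr7:103813874-103814173 on the minus strand for Hbb-bt, chr10:128083057-128083356 on the plus strand for Atp5b and chr7:30183921-30184220 on the plus strand for Cox7a1. Capitals mark TATAAA (gene strand only) in Hbb-bt, and CCAAT or its reverse complement ATTGG in the other promoters. The Hbb-bt window also holds CCAAT and ATTGG, which are left in lower case there.
Hbb-bt: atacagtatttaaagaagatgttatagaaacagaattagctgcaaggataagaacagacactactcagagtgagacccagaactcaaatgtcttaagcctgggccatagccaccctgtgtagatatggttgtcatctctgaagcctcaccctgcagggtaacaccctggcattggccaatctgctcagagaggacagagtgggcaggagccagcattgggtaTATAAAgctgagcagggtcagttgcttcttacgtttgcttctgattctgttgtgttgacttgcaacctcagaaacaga
Atp5b: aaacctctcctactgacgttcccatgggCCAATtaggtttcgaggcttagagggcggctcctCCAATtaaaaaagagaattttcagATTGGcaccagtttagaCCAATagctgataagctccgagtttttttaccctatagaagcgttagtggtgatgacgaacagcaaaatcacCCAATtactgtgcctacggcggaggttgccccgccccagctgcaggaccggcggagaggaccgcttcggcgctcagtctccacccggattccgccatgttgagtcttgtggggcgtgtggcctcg
Cox7a1: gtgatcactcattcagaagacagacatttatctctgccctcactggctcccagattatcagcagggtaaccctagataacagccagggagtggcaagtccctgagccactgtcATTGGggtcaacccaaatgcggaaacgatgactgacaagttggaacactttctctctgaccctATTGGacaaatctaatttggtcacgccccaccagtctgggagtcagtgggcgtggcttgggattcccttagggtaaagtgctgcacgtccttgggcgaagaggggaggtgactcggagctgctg
Of the 30 genes of highest level, 24 had an entry in the promoter table, with 34 promoters. CCAAT on either strand was present in 23 of those 34, or 67.6%, against 37.4% of the 32851 promoters of the table and 37.1% of the 12407 promoters of kept genes. TATAAA was present in 2 of the 34, or 5.88%, against 8.32% of the table. These are counts of letters in a window, and no binding was measured.

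Probes for contraction and for oxidative metabolism held most of the top of the ranking. Of the 30 named genes of highest level, 8 belonged to the sarcomere lists, 9 to the respiratory complex lists, 3 to the erythroid list and 2 to the list for glycolysis and the citric acid cycle. Among the 100 highest, 32 were respiratory complex genes, 12 sarcomere genes, 9 ribosomal protein genes and 7 genes of fatty acid uptake or oxidation. The 30 span 1.05 log2 units, from Hbb-bt at 9.85 ± 0.56 (SD, n = 4) to Gsn at 8.80 ± 0.48. None of the 29 steps between neighbours exceeded the larger SD of its pair, and the widest step was 0.30, so the order within the 30 is not resolved by 4 hearts. For 15 of the 30, every heart's own ranking also placed the gene among its 31 highest features. The probes of Hbb-bt, Ptprz1 and Aldoa were flagged as saturated on 2 arrays each, and those of Slc25a4, Mybpc3 and Rn18s on 1. Those levels may be capped.

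**Figure D1:**
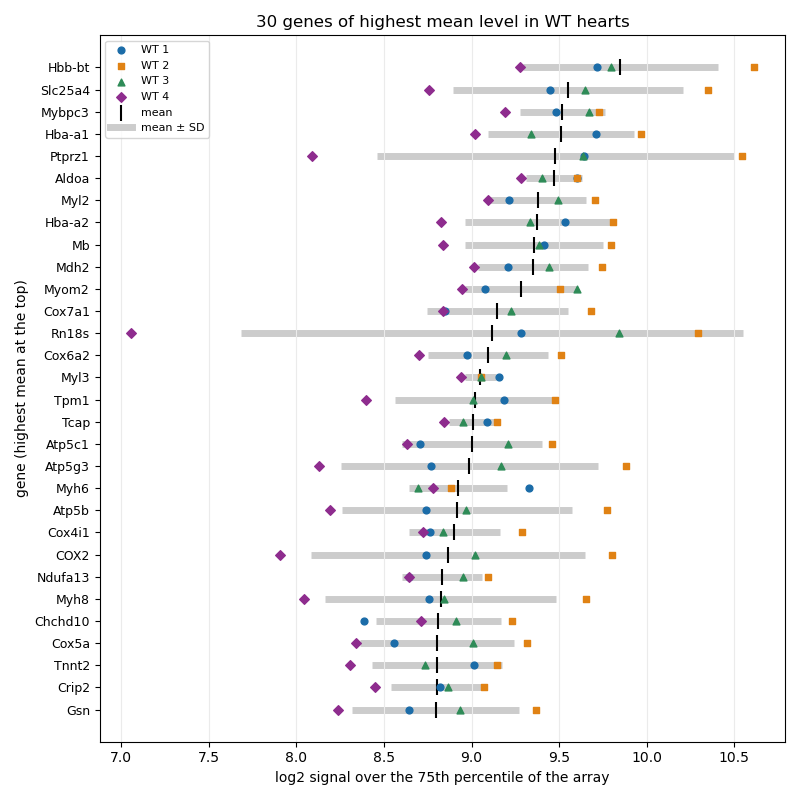
Levels of the 30 named genes of highest mean level in each WT heart (x axis, log2 signal over the array's 75th percentile; 1 symbol per heart, black tick for the mean, grey bar for mean ± SD). The bars of neighbours overlap throughout, and Rn18s at 7.06 in WT 4 is far below its other 3 values.

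Sarcomere genes led the cardiomyocyte probes. Mybpc3, which encodes cardiac myosin-binding protein C of the thick filament, read 9.48, 9.73, 9.67 and 9.19 in WT 1 to WT 4. Myl2, the regulatory light chain of ventricular myosin, read 9.21, 9.71, 9.50 and 9.09. Its 4 values lie within 0.61 of each other. Myl3, the essential light chain, read 9.16, 9.05, 9.05 and 8.94, and its SD of 0.09 was the smallest of the 30. Myh6, the adult cardiac myosin heavy chain of mice, read 9.33, 8.89, 8.70 and 8.78, highest in WT 1. The M-band protein gene Myom2 had a mean of 9.28 ± 0.32. The thin filament and Z-disc were represented by Tpm1 (tropomyosin, 9.02 ± 0.46), Tcap (telethonin, which caps titin at the Z-disc, 9.01 ± 0.14) and Tnnt2 (cardiac troponin T, 8.80 ± 0.37). All 15 measured thick-filament genes were kept, with a median level of 5.72, as were 32 of 33 thin-filament and Z-disc genes, with a median of 5.64. Tnni1, the slow skeletal troponin I of fetal heart, was the thin-filament gene not well above background on all 4 arrays.

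Energy supply formed the other large block. Slc25a4, the mitochondrial ADP/ATP carrier of muscle, read 9.45, 10.35, 9.65 and 8.76, and its further kept probe averaged 9.23. Cox7a1 and Cox6a2, the muscle isoforms of cytochrome oxidase subunits, had means of 9.15 ± 0.40 and 9.10 ± 0.34. The ATP synthase gene Atp5c1 read 8.71, 9.46, 9.21 and 8.63, and Atp5g3 and Atp5b had means of 8.99 ± 0.73 and 8.92 ± 0.66. All 37 measured complex I genes were kept, with a median of 6.88, led by Ndufa13 at 8.83 ± 0.23, and all 46 genes of complexes II to V, with a median of 7.57. In carbohydrate metabolism, Aldoa (aldolase) read 9.60, 9.60, 9.40 and 9.28, and Mdh2 (mitochondrial malate dehydrogenase) averaged 9.35 ± 0.31. Among fatty acid genes, 34 of 36 were kept, with a median of 5.72. Acadvl, the first dehydrogenase of long-chain oxidation, reached 8.61 ± 0.32 and Etfb, the electron carrier it feeds, 8.33 ± 0.17. Fabp3, the fatty acid binding protein of heart muscle, was left out because the only spot of its 1 probe was flagged as an outlier on WT 1. It read 9.50, 9.09 and 8.50 in WT 2 to WT 4, which is within the range of the 30 highest, and averaged 8.93 ± 0.46 with outlier-flagged spots kept. Mb (myoglobin) read 9.41, 9.80, 9.38 and 8.84, and Ckmt2 (mitochondrial creatine kinase) 8.32, 8.29, 8.17 and 8.38.

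Red-cell RNA gave the probe of highest level. Hbb-bt (Hbb-b1 in the files), a beta-globin gene, read 9.72, 10.61, 9.80 and 9.28, saturated on 2 arrays, and its further 3 kept probes averaged 9.35, 8.79 and 7.88. The alpha-globin genes Hba-a1 and Hba-a2, near-identical copies that the probes may not separate, averaged 9.51 ± 0.42 and 9.38 ± 0.41. Of 12 erythroid genes measured, 9 were kept. The red-cell membrane genes Epb42 and Rhag were among those not kept.

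Some high ranks rest on 1 probe that the gene's further probes do not share. Ptprz1, a receptor phosphatase known from the nervous system, read 9.64, 10.55, 9.64 and 8.09 at 1 probe, designed to a separate transcript accession, while its further 3 probes averaged from -6.40 to -3.62 and none was above background on more than 2 arrays. Myh8, the perinatal myosin heavy chain, averaged 8.82 ± 0.66 at 1 probe and -6.27 to -6.02 at the further 3, which were above background on 0 arrays. Those 2 levels are therefore levels of a probe, and which transcript it reports was not tested. The probe named COX2 in the files, after subunit 2 of cytochrome oxidase, averaged 8.87 ± 0.78. The files place it on chromosome 1 of the mm8 build (24569175 to 24569234), and the mitochondrial gene and nuclear copies cannot be told apart.

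At this end of the range the hearts also differ as arrays. WT 2 was highest for 26 of the 30 and WT 4 lowest for 27, with a median SD of 0.40. After quantile normalization, which gives all arrays the same distribution, WT 2 was highest for 7 and WT 4 lowest for 14, and the median SD was 0.21. The order of hearts at the top of the ranking therefore depends on the scaling, and no heart is called higher for these genes. Under quantile normalization Myl3 had WT 2 lowest and an SD of 0.28, so its small SD also depends on the scaling.

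Marker lists showed which cells contributed RNA, and the plot of list levels shows each one. All 21 cardiomyocyte markers were kept, with a median level of 8.66, at a median percentile of 99.7 among kept genes. All 21 endothelial markers were kept, with a median of 3.49. Fabp4 (8.41 ± 0.25), a fatty acid binding protein shared by endothelium and fat, Aqp1 (a water channel, 5.78 ± 0.62) and Flt1 (a VEGF receptor, 5.51 ± 0.45) led them. All 17 fibroblast markers were kept, with a median of 2.17, led by Gsn (gelsolin, which many cells express), Dcn (decorin, 7.19 ± 0.41) and Vim (vimentin, 5.85 ± 0.33). The 14 mural markers had a median of 2.79, and Acta2, smooth-muscle actin, read 4.93, 4.99, 4.97 and 4.86. Among 18 macrophage markers the median was 1.45, with Lyz2 (lysozyme) at 6.78 ± 0.40 and C1qc, a complement subunit, at 3.23 ± 0.42. The 18 mesothelial markers had a median of 0.78, with C3 and Clu, which other cells also make, in the lead at 6.59 ± 0.34 and 6.28 ± 0.15.

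**Figure D2:**
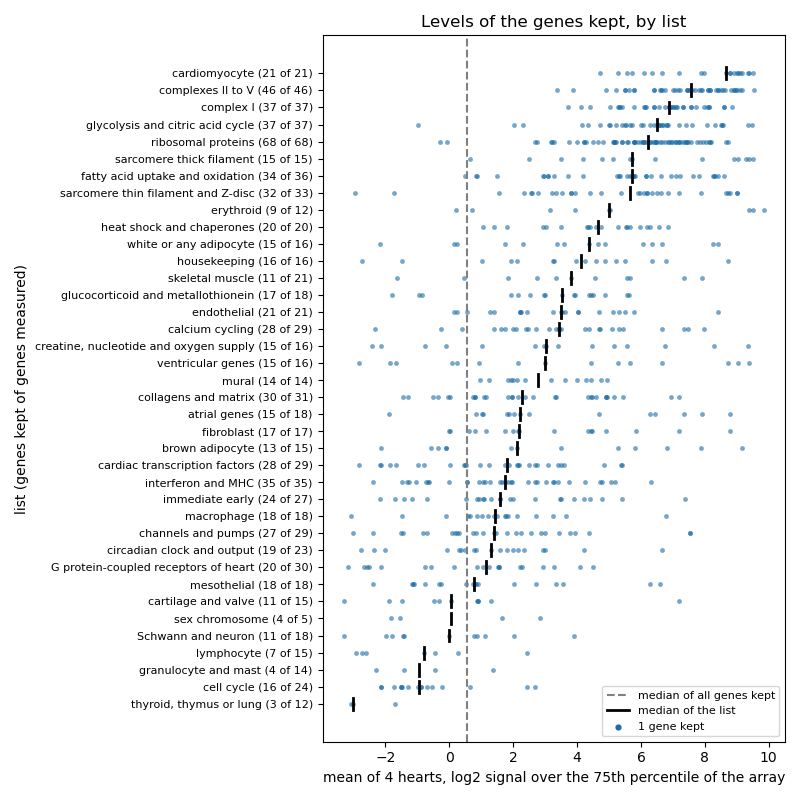
Mean level over the 4 WT hearts (x axis, log2) of each kept gene, by list (y axis, with genes kept of genes measured); black ticks are list medians and the dashed line is the median of all kept genes, 0.57. Cardiomyocyte, respiratory and ribosomal lists lie to the right, and lymphocyte, granulocyte and cell cycle lists to the left of the dashed line.

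Other cell types were covered in part, beside the 49.5% of all gene names on the array that were kept. Of the lists in this paragraph, only granulocyte and mast cell genes and thyroid, thymus or lung genes fell well below that share. Of 15 lymphocyte genes 7 were kept, of 14 granulocyte and mast cell genes 4, of 18 Schwann cell and neuron genes 11, and of 12 genes of thyroid, thymus or lung 3. Those last 3 (Tg, Dntt and Scgb1a1) lay between -3.08 and -1.71. Fat markers were better covered: 15 of 16 genes of white or any adipocyte and 13 of 15 brown adipocyte genes were kept, with medians of 4.37 and 2.11. Several of these, such as Fabp4, Lpl and Cox7a1, are also made in endothelium or heart muscle. Ucp1, the uncoupling protein that defines brown fat, was kept and read 5.94, 4.98, 4.18 and 6.05. Of 21 skeletal muscle genes 11 were kept, and fast-fibre genes such as Actn3, Casq1, Myh1, Myh2 and Mylpf were not. Myh4, a fast myosin heavy chain, averaged 7.91 ± 0.47 at 1 probe and -6.33 at its other, which was above background on 0 arrays, as for Myh8.

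Atrial and ventricular genes were both present. Nppa, the atrial natriuretic peptide, read 8.70, 9.05, 8.68 and 8.75, and Myl7, the atrial regulatory light chain, 7.48, 8.30, 8.12 and 7.74. Sln (sarcolipin), an inhibitor of the calcium pump, averaged 7.34 ± 0.39. Of 29 calcium-cycling genes 28 were kept, led by the pump Atp2a2, at 8.05, 8.07, 8.02 and 7.74. Of 29 channel and pump genes 27 were kept, with a median of 1.41. Kcnj2, an inward rectifier channel, was not kept. Cardiac transcription factors were lower: 28 of 29 were kept, with a median of 1.81, led by Hopx (5.39 ± 0.09) and Mef2d (5.39 ± 0.22). Hand1 was not kept.

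All 16 housekeeping genes were kept, and they ran across the range. Rplp0, a ribosomal stalk protein, was highest at 8.71 ± 0.39, and Gapdh read 6.83, 6.85, 6.67 and 6.80, with an SD of 0.08. Next came Eef1a1 (6.34 ± 0.17), Pgk1 (5.49 ± 0.37), Sdha (5.23 ± 0.23), Eef2 (4.86 ± 0.34), Hprt (4.58 ± 0.56), B2m (4.25 ± 0.39) and Tubb5 (3.96 ± 0.09). Actb averaged 3.28 ± 0.44, Ywhaz 2.13 ± 0.67, Ppia 1.92 ± 0.44 and Gusb 1.04 ± 0.34. Polr2a and Tbp were near the dim end, at -1.48 ± 0.61 and -2.72 ± 0.33. The median SD of the 16 was 0.36, above that of all kept genes, which was 0.30. Ywhaz, Polr2a, Hprt and Actb spread most, and Gapdh and Tubb5 least. The SD of Gapdh was 0.20 after quantile normalization.

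The sex-linked genes kept were Y-linked. These were Eif2s3y (2.84 ± 0.50), Ddx3y (1.66 ± 0.39), Kdm5d (-1.54 ± 0.22) and Uty (-1.82 ± 0.58). Xist, the RNA of the inactive X chromosome, was not kept. Of the prokineticin system, the receptors Prokr1 and Prokr2 (PKR2) and the ligand Prok2 were not well above background on all 4 arrays. Prok1 was kept at -3.85, -2.57, -3.35 and -3.51, near the lowest level of any kept gene.

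Spread among the 4 hearts was modest for most genes. The SD of a kept gene had a median of 0.30, with the middle 50% between 0.20 and 0.43. For 158 genes (1.15%) it was over 1, and for 605 (4.40%) it was under 0.1. It fell with level: the median SD was 0.33 at levels of 0 or below, 0.28 from 0 to 5 and 0.26 above 5. The 30 named genes of highest level went the other way, with a median SD of 0.40. Spotting noise was smaller. For 139 kept probes with 10 spots on each array, the median SD among spots of an array was 0.05 to 0.07, the median SD among hearts was 0.31, and in 133 of the 139 the SD among hearts was above that of the spots on every array. With 1 array per heart, the part of the spread that comes from labelling and hybridisation cannot be told apart from that between mice.

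The flattest genes above level 0 had SDs of 0.01 to 0.02. Syt11, a synaptotagmin, read 0.82, 0.83, 0.84 and 0.84, and Aldh5a1, a mitochondrial dehydrogenase of GABA breakdown, 3.92, 3.90, 3.90 and 3.91. Others among the 10 flattest were Map1s, E4f1, Naa38, Prpf31 (a splicing factor), Afdn (afadin of cell junctions), Aig1 and Fam160a2, at levels from 0.93 to 4.77. With 4 values per gene and 13738 genes, such small SDs at the extreme of the ranking describe these arrays only.

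The other end of the ranking was dominated by 1 heart. WT 4 was lowest for 22 of the 30 named genes of largest SD, against 20.2% of all kept genes; SD chose these genes, so nothing is read from the share. Cdk5r2, a neuronal activator of CDK5, read 3.92, 5.53, 4.51 and -1.37, a 119-fold span. Lars2, the mitochondrial leucyl-tRNA synthetase, read 9.26, 10.51, 9.62 and 4.19. WT 4 lies below the other 3 hearts by more than 5 log2 units in both. The probe Rn28s1 (LOC236598 in the files), for 28S ribosomal RNA, read 0.74, 1.84, 1.38 and -3.61, and Rn18s, for 18S ribosomal RNA, 9.28, 10.29, 9.84 and 7.06. Syt10, H1f10 (H1fx in the files), Mink1, Synpo, Rusc1, Tfap2e, Arl4d, Grin2d, Tfam, Fthl17e, Syn1, Foxq1, Arid5b, Fam110a, Grn, Klf2 and Cox17 were others of the 22, with SDs from 1.45 to 2.34. WT 2 was highest in all 22.

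**Figure D3:**
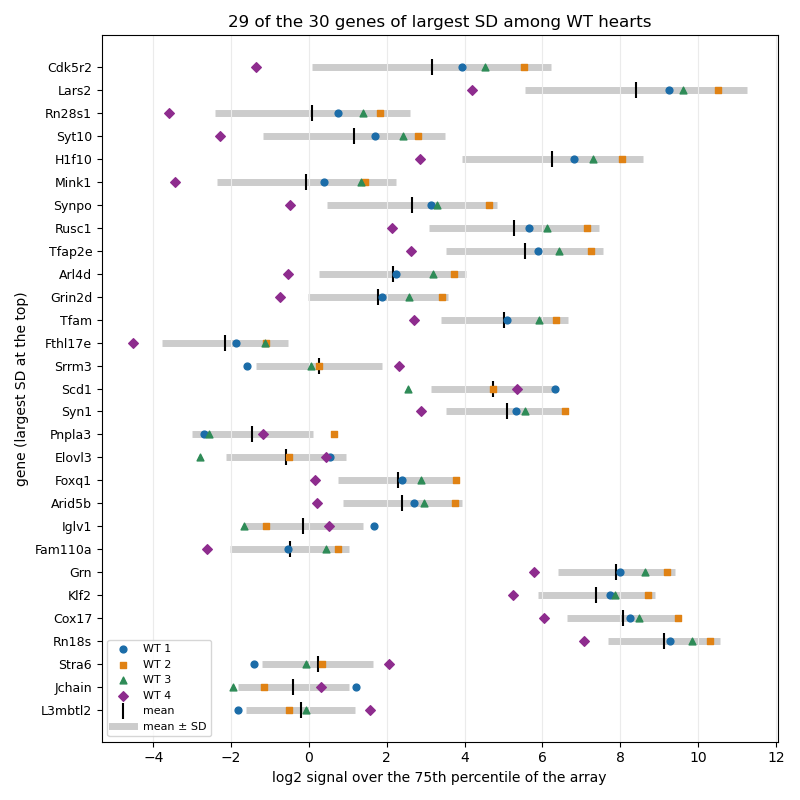
Levels of 29 of the 30 named genes of largest SD in each WT heart (x axis, log2 signal over the array's 75th percentile; 1 symbol per heart, black tick for the mean, grey bar for mean ± SD). WT 4 is lowest in 21 of the 29, WT 3 is lowest in 4, among them Scd1 and Elovl3, and WT 1 is lowest in 4.

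Further probes of the same genes mostly did not repeat this. Of the 22, 10 had a further kept probe: its SD was below 0.5 times that of the brightest probe in 9, and WT 4 was lowest in 2. Klf2, a flow-responsive transcription factor of endothelium, read 7.73, 8.71, 7.86 and 5.24 at its brightest probe and 5.51, 5.79, 6.01 and 5.16 at the next. Cox17, a copper chaperone for cytochrome oxidase, read 8.25, 9.48, 8.49 and 6.05 against 6.48, 6.45, 6.50 and 6.49. Grn (progranulin) read 7.99, 9.20, 8.63 and 5.77 against 3.50, 2.87, 2.70 and 2.83, and Tfam, a mitochondrial transcription factor, 5.09, 6.36, 5.92 and 2.71 against 3.16, 2.89, 3.05 and 3.77. The gene of the 10 whose next probe spread as widely was Rn18s, at 1.82, 4.20, 3.26 and -2.62. Another 4 of the 22 had no further probe above background on all arrays, and 8 had a single probe. Among the 10 genes that could be compared, WT 4 was lowest at the next brightest kept probe too in Klf2 and Rn18s and not in the other 8. For the other 12, the probe and the transcript cannot be told apart.

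**Figure D4:**
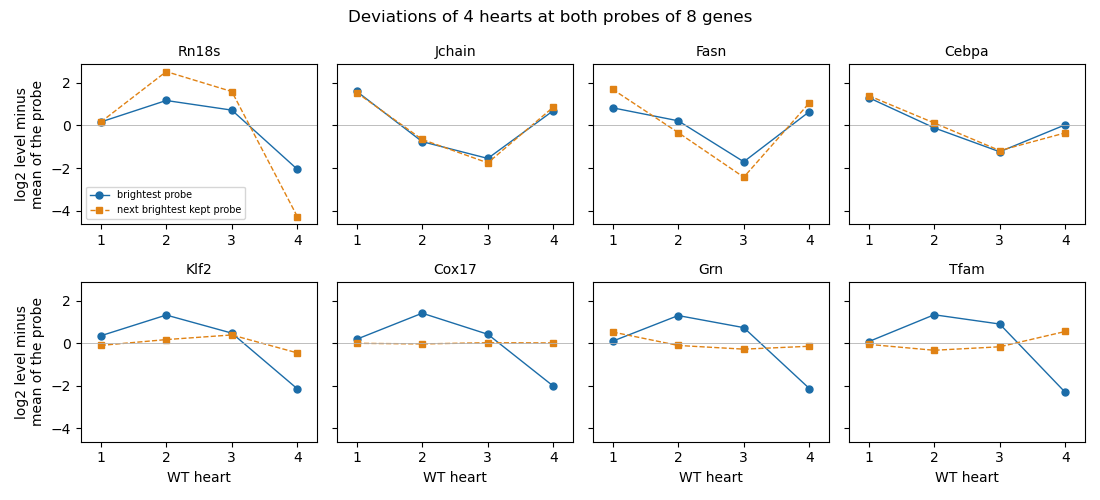
Level of each WT heart (x axis, heart 1 to 4) minus the probe's mean over the hearts (y axis, log2) at the brightest probe (blue circles, solid) and the next brightest kept probe (orange squares, dashed) of 8 genes. The probes move together in Rn18s, Jchain, Fasn and Cebpa, and part in Klf2, Cox17, Grn and Tfam, where WT 4 is low at the brightest probe.

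Over all kept genes, agreement between probes was partial. In the 4221 genes with at least 2 kept probes the SDs of the 2 brightest correlated at r = 0.20 across genes, as a description, whereas their levels correlated at r = 0.72. Of 32 such genes with an SD over 1 at the brightest probe, the next probe also exceeded 1 in 7 and lay under 0.5 in 19. Both probes had an SD over 0.5 in 128 genes, and both placed the same hearts highest and lowest in 53 of these, or 41.4%, against 19.9% of all 4221. Because the ranking took the brightest probe, genes for which both probes spread are described with both.

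Counts of single hearts over all kept genes put a different heart first by a relative measure than by an absolute one. In 755 genes (5.5%), 1 heart stood apart from the other 3: its gap to the nearest took a share of the gene's range above Dixon's critical value for 4 samples. WT 1 was the heart apart in most of them, low in 240 and high in 186, followed by WT 4, low in 60 and high in 125. In absolute terms, 460 genes (3.35%) had 1 heart more than 1 log2 unit from the nearest other. WT 4 was that heart on the low side in 159, WT 1 in 89, WT 3 in 69 and WT 2 in 1. Of the 34 among the 159 with a further kept probe, 3 repeated the gap at that probe.

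Several genes of large spread that act in fatty acid synthesis were low in WT 3. Without WT 4, the 30 genes of largest SD shared 6 with the ranking of 4 hearts, and in 21 of the 30 WT 3 was lowest of the 3 hearts left, against 28.1% of all kept genes. SD chose these 30 too, so nothing is read from that share, and fatty acid synthesis was not a list fixed for counting. Scd1, the desaturase that makes oleic acid, read 6.32, 4.72, 2.55 and 5.34, a 13.7-fold span. Fasn, fatty acid synthase, read 8.53, 7.92, 5.997 and 8.35, and its further probe 2.70, 0.67, -1.43 and 2.06. WT 3 was lowest at both Fasn probes and WT 1 highest. The fatty acid elongases Elovl3 and Elovl6 read 0.54, -0.52, -2.79 and 0.43, and 2.69, 1.95, 0.16 and 2.93. Acaca, which commits carbon to fatty acid synthesis, Slc25a1, which exports citrate for it, and Tkt, of the pentose phosphate route that supplies NADPH, were named after their values were seen. Acaca read 1.19, -0.12, -1.56 and 0.50. Slc25a1 read 1.79, 0.65, -0.93 and 1.60, and Tkt 5.83, 4.57, 3.05 and 5.54. WT 3 was lowest in all 3. Cebpa, a transcription factor of adipocytes, read 1.41, -0.01, -1.14 and 0.13, with the same lowest and highest heart at its further probe.

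The Fasn promoter is printed because Fasn is a lipid gene whose spread both probes show. Gpd1 (glycerol-3-phosphate dehydrogenase), Lipe (hormone-sensitive lipase) and Retn (resistin) are others with WT 3 lowest at both probes. It lies at chr11:120824498-120824797 on the minus strand of GRCm38.p6, and capitals mark its 3 CCAAT boxes on either strand, 2 of which overlap.
Fasn: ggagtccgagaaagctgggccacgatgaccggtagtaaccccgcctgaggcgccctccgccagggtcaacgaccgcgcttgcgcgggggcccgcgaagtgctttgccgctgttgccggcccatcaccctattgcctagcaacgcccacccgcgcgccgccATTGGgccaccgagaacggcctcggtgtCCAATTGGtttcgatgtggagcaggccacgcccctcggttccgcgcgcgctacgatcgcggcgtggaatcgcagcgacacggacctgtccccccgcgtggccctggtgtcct
Of 21 genes lowest in WT 3 in the ranking without WT 4, 16 had promoters in the table, and 6 of their 17 promoters (35.3%) held CCAAT, close to the 37.4% of all promoters.

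The adipocyte lists also had WT 3 lowest. WT 3 was lowest in 12 of 15 kept genes of white or any adipocyte and 7 of 13 brown adipocyte genes, against 19.8% of all kept genes. All gene lists here and below were chosen with earlier results of these data known. Their shares describe these arrays and nothing is read from them. The mean deviation of the white or any adipocyte list was 0.28, 0.37, -0.74 and 0.09 in WT 1 to WT 4. Adipoq (adiponectin) read 4.25, 3.94, 2.26 and 3.88, Cidec and Plin1, both lipid droplet proteins, 5.52, 5.42, 3.60 and 4.98, and 3.84, 3.98, 2.14 and 3.51. For the brown adipocyte list the mean deviation was 0.27, 0.09, -0.67 and 0.32. That list holds Elovl3, Elovl6 and Slc27a2, which are in the rankings by spread. In its other 10 kept genes WT 3 was lowest in 4 and the mean deviation was 0.04, 0.10, -0.34 and 0.19. The white or any adipocyte list holds none of the ranked genes. Ucp1, with the levels given above, had WT 3 lowest and spanned 3.67-fold, and Cidea read 7.38, 6.95, 6.01 and 6.87. Cox7a1, Cox8b and Ppargc1a, members of the brown list that heart muscle also expresses, did not have WT 3 lowest. WT 3 stayed lowest for both lists under every scaling and filter tried. In bulk tissue, fewer cells of a type and less RNA per cell cannot be told apart, and how much fat was left on each heart is not given in the labels used here.

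Jchain and Iglv1, which are among the 30 genes of largest SD, separated WT 1 and WT 4 from WT 2 and WT 3. Jchain (Igj in the files), the joining chain made by plasma cells, read 1.21, -1.16, -1.95 and 0.30 at its brightest probe and -0.22, -2.43, -3.53 and -0.91 at the next, an 8.89-fold span at the brightest. Iglv1, a lambda light chain segment whose probes may also bind related segments, read 1.67, -1.09, -1.67 and 0.52. The 7 further Iglv1 probes, none of them above background on all 4 arrays, also had WT 1 highest. The lymphocyte list was also chosen with earlier results of these data known. Of its 7 genes kept, WT 1 was highest in 6, against 25.6% of all kept genes. Among them Ighm (the IgM heavy chain) read 3.02, 2.38, 2.05 and 2.33, so that WT 4 did not group with WT 1, and Cd79b, of the B-cell receptor, 0.95, -0.18, -0.10 and 0.43. The defining B-cell gene Cd79a and the T-cell genes Cd3d, Cd3g, Cd4 and Cd8a were not kept. Of the 6 kept erythroid genes other than globins, WT 1 was highest in 5. Alas2, the first enzyme of haem synthesis in red cells, read 6.04, 4.61, 4.50 and 4.87 and Bpgm 4.19, 2.85, 2.69 and 2.88. The exception was Fech, the last enzyme of haem synthesis in all cells, at 4.43, 5.56, 5.58 and 4.57. The brightest probes of Hbb-bt, Hba-a1 and Hba-a2 were highest in WT 2, but at their level the order of hearts depends on the scaling. The dimmest kept Hbb-bt probe had WT 1 highest, at 8.19, 8.05, 7.98 and 7.33, while its other further probes had WT 2 highest. Whether globins followed the other erythroid genes is therefore not resolved. The share of blood in each heart was not tested.

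Clock genes were low in WT 4. Of 23 clock and output genes measured, 19 were kept, and WT 4 was lowest in 12 of them, against 20.2% of all kept genes. The list was chosen with earlier results of these data known, so nothing is read from that share. Per3, a period gene of the negative limb, read -1.75, -2.52, -2.32 and -4.40. Bhlhe41, an E-box repressor, read -1.97, -1.96, -1.90 and -3.64. Ciart, a repressor of CLOCK and BMAL1, read 0.57, 1.39, 1.56 and -0.19, Per2 -0.07, 0.41, 0.33 and -0.98, and Per1 2.23, 2.29, 2.51 and 1.52. The output factors Dbp and Tef read 6.78, 6.89, 6.79 and 6.21, and -1.25, -1.87, -1.91 and -3.07. WT 4 lies below the other 3 hearts in all of these. Clock itself, of the positive limb, read 0.55, 1.36, 1.54 and 1.73, with WT 4 highest. Its partner Arntl (BMAL1) was not above background on WT 2 and so was not kept, and it read -3.46, -3.38, -3.86 and -0.87, highest in WT 4. Npas2, Cry1 and Wee1 were not kept. The mean deviation of the list was 0.15, 0.09, 0.21 and -0.45, and WT 4 stayed lowest under every scaling and filter tried. The spread of dim members depends on the processing: the SD of Per3 was 1.15 as reported, 0.39 on the authors' values and 0.21 after normexp. Normexp added an offset of 50 units, which narrows the SDs of dim genes by construction.

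Among the 12 clock genes lowest in WT 4, 11 had promoters in the table, and the E-box CACGTG, which reads the same on both strands, was present in 6 of their 14 promoters (42.9%) against 28.6% of the 21 promoters of the whole clock list, 9.79% of those of kept genes and 7.15% of all in the table. Those 6 promoters are also the only ones with CACGTG in the whole clock list. They belong to 5 genes, Bhlhe41, Ciart, Per1, Tef and Tspan4. These hearts' levels chose the 12 genes from a list of clock genes, so nothing is read from these shares. No binding was measured. Ciart has 3 copies. The promoters of Per1 (chr11:69098699-69098998, plus strand), Ciart (chr3:95882179-95882478, minus strand) and Bhlhe41 (chr6:145865371-145865670, minus strand) are printed as the clearest cases, in GRCm38.p6, with CACGTG in capitals.
Per1: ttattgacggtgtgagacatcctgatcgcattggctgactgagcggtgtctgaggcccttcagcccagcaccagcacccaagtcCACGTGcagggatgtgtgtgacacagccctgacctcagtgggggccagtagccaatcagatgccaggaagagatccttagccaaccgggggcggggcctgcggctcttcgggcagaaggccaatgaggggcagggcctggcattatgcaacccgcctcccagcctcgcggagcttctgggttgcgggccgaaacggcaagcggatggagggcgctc
Ciart: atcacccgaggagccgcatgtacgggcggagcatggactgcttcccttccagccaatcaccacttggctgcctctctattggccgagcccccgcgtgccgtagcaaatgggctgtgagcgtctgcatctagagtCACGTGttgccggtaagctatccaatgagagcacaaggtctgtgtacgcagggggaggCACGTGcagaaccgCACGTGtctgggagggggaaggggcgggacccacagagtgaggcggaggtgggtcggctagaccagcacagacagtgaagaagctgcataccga
Bhlhe41: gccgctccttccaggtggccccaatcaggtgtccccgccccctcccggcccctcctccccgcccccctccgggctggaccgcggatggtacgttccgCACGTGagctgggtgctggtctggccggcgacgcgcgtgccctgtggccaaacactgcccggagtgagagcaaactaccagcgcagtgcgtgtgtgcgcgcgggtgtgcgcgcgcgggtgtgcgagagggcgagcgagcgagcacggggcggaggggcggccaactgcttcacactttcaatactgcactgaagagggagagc
For Per2, Per3 and Dbp, no CACGTG was found in this window, which says nothing of E-boxes elsewhere in those genes. The first copy lies 166 bases before the start site in Per1, 116 in Ciart and 153 in Bhlhe41.

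Some glucocorticoid-responsive genes were higher in WT 2 and WT 3, the pair of hearts most alike over all kept genes. Of the 17 kept genes of the list, WT 3 was highest in 9, against 3401 of all 13738. WT 1 was lowest in 7, against 38.7% of all kept genes. How many of all kept genes put WT 2 and WT 3 above WT 1 and WT 4 was not counted. Ddit4, an inhibitor of mTORC1 signalling, read 4.56, 6.32, 6.72 and 4.90, Cebpd 4.19, 5.29, 5.90 and 4.18, and Klf15, a metabolic transcription factor, 2.50, 3.90, 4.19 and 3.54. Sgk1, a kinase that acts on ion channels, read 2.96, 4.15, 4.41 and 4.03. The values of WT 1 and WT 4 were below those of WT 2 and WT 3 in these 4 genes. Other members did not follow: Pdk4, which restrains glucose oxidation, read 5.45, 5.54, 5.08 and 6.17, and Tsc22d3 4.28, 3.81, 4.02 and 3.58. The list's mean deviation was -0.29, 0.26, 0.19 and -0.17, and it spanned 0.31 after normexp against 0.55 as reported.

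Interferon and antigen-presentation genes were highest in WT 4 in 19 of 35 genes, against 27.2% of all kept genes. They were lowest in WT 3 in 21, against 19.8%. This list too was chosen with earlier results of these data known. Irgm2, an interferon-inducible GTPase, read 3.22, 3.05, 3.04 and 4.25, Tgtp1 1.43, 1.85, 1.38 and 2.75, and B2m, of MHC class I, 4.03, 4.04, 4.11 and 4.83. WT 4 was alone above the others in these 3. Psmb8 (an immunoproteasome subunit) and Ly6e read 2.30, 1.16, 1.21 and 2.30, and 1.79, 0.80, 0.63 and 1.88, with WT 1 and WT 4 together above the rest. The class I genes H2-K1 and H2-D1, of highest level in the list, had WT 4 lowest, at 6.26, 6.44, 6.46 and 6.05, and 5.66, 5.29, 5.05 and 4.74. The list's mean deviation was 0.07, -0.08, -0.27 and 0.28, and under median scaling WT 2 was lowest in place of WT 3.

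**Figure D5:**
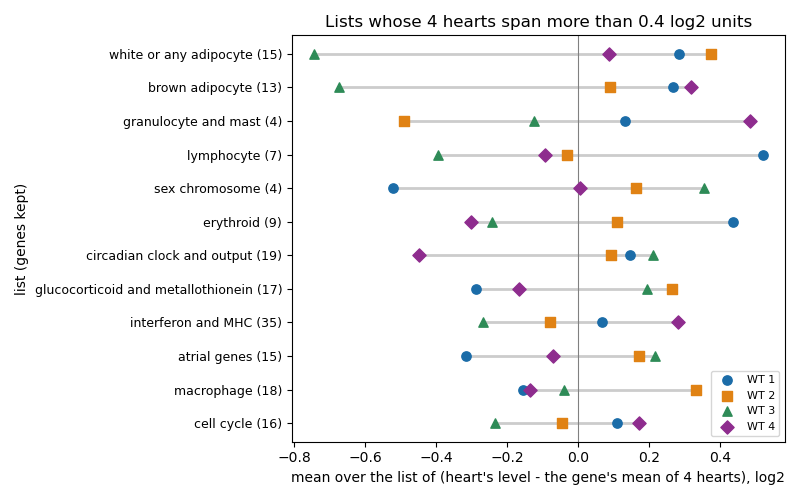
Mean over the kept genes of a list of each heart's level minus the gene's mean of 4 hearts (x axis, log2), for lists whose hearts span more than 0.4 (y axis, genes kept in brackets; 1 symbol per heart). WT 3 lies at -0.74 and -0.67 for both adipocyte lists, and WT 4 at -0.45 for the clock list.

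Other compartments differed between hearts in some single genes more than across their lists. Macrophage markers were highest in WT 2 in 10 of 18, against 22.4% of all kept genes. Lyve1, a receptor on resident macrophages and lymphatic vessels, read 0.38, 2.06, 1.91 and 1.29, lowest in WT 1. In the endothelial list, Sox17, an arterial transcription factor, read 0.26, 1.86, 2.35 and 0.62, and Cldn5, a tight-junction protein, 1.74, 1.10, 0.56 and 2.19. WT 1 and WT 4 lay below WT 2 and WT 3 for Sox17 and above them for Cldn5. In the mural list, Cnn1 and Tagln, contractile smooth-muscle genes, were highest in WT 2, at 3.06 and 5.33, while Acta2 varied by 0.13 across hearts. WT 2 was highest in 4 of the 14 mural genes and WT 1 in 5, and after quantile normalization the list had WT 1 highest. Col1a1, a collagen of fibroblasts, read 3.79, 5.10, 4.75 and 4.23, and Timp2, an inhibitor of matrix proteases, 4.28, 5.71, 5.86 and 4.80. WT 1 was lowest in both. Of the 30 kept collagen and matrix genes, WT 1 was lowest in 12, near the 38.7% of all kept genes, and WT 3 also in 12. After quantile normalization that list had WT 3 lowest.

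WT 1 was also low for atrial and ribosomal genes, although not for complex I genes under every scaling. WT 1 was lowest in 8 of 15 atrial genes, in 42 of 68 ribosomal protein genes and in 21 of 37 complex I genes, against 38.7% of all kept genes. The atrial list's mean deviation was -0.32 in WT 1 and from -0.07 to 0.22 in the others. Fgf12, which modulates sodium channels, read -0.02, 1.51, 1.36 and 1.23, and Mybphl, a myosin-binding protein of atria, 2.03, 2.75, 2.90 and 2.30. Nppa was not lowest in WT 1. The ribosomal list spanned 0.34, with WT 1 lowest, and 0.16 after quantile normalization, still with WT 1 lowest. The complex I list had WT 1 lowest at -0.16, but WT 2 lowest at -0.11 after quantile normalization, -0.11 after normexp and -0.09 on the authors' values. The ventricular list spanned 0.02 under the 75th percentile scaling and 0.19 to 0.22 under quantile normalization, normexp, median scaling and the authors' values, and its member Lbh ran from 0.06 in WT 2 to 1.91 in WT 1. The lists for glycolysis and the citric acid cycle, mesothelium, immediate early genes and heart receptors coupled to G proteins spanned 0.06 to 0.13, and 0.09 to 0.33 under those other scalings, with the glycolysis and citric acid cycle list widest after quantile normalization. The 4 Y-linked genes spanned 0.88, with WT 1 lowest at -0.52, although every heart is from a male.

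Single genes completed the ranking of spread. Pnpla3, a lipase of liver and fat, read -2.69, 0.64, -2.56 and -1.19, highest in WT 2. Stra6, a retinol transporter, read -1.41, 0.35, -0.07 and 2.05, Srrm3 -1.60, 0.27, 0.05 and 2.32, and L3mbtl2 -1.82, -0.51, -0.08 and 1.57. These 3 had WT 4 highest and WT 1 lowest. The further kept probe of L3mbtl2 ran from -1.65 to -0.99 and had WT 1 highest, so it did not repeat the order. Marco, a scavenger receptor of macrophages, was named after its values were seen and read 0.97, 1.35, -1.64 and -0.35.

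No gene was called for the scan range, in a test with few arrays on each side. It can miss large differences as well as small ones, since Pnpla3, which differed by 2.35 log2 units, was not called. With WT 2 and WT 4 (single range) set against WT 1 and WT 3 (extended range) in limma, 0 of 13738 genes passed an adjusted p of 0.05, a share of 0%, and 76 (0.553%) had an unadjusted p under 0.05, of which 57 were higher and 19 lower in single range. Left with WT 4 alone against WT 1 and WT 3, it called 66 genes, on the assumption that WT 4 varies like the others, and without WT 4 it called 2. Of the 224 genes named by rule, 5 had an unadjusted limma p under 0.05. Among these, Pnpla3, Stra6 and Srrm3, described above for their spread, were higher in the single-range hearts by 2.35, 1.94 and 2.07 log2 units, and both single-range hearts lay above both extended-range hearts. Egr2, an early growth response factor, was higher by 0.85, and Per3 differed by -1.43. Scd1 was not among the 5.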

How the data were processed

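Signals are the intensity values deposited by the authors as scanner output, 1 table per array; per the file headers they were made with Agilent Feature Extraction 9.5.1.1, which subtracted background to give the processed signal, and probes were placed on mm8. The authors' value table, an intensity they had normalized between arrays in a way that neither headers nor labels name, served as an alternative. Per the labels' protocols, RNA came from Tri-Reagent and 100 ng was labelled with Cy3. Each WT array has 43379 spots of 41174 probes once control spots are left out. Outlier-flagged spots were dropped (61 to 172 per array), log2 processed signal was set against the array's 75th percentile, spots of 1 probe were averaged, and the brightest probe per gene name that was well above background on all 4 arrays was kept. Spots flagged as saturated numbered 1 to 4 per array. Current symbols came from RefSeq by accession for 24375 probes, by symbol for 6301 and by synonym for 2426, and 8072 kept the file's name. The precision of each value is limited by 4 arrays. The replicates are 4 mice per the labels.

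The report is a description of 1 group, with SDs over 4 hearts. The 1 test, of scan range, used limma 3.58.1 in R 4.3.3 with Benjamini-Hochberg adjustment over all kept genes, after being tested on simulated data. The simulated shifts were larger than any scan range difference given here, so they do not show that smaller ones would be called. Genes named are the 30 of highest level, the 30 of largest SD, the 10 of smallest SD above level 0, up to 3 of highest level and 2 of largest SD from each of 39 gene lists, and every kept housekeeping, sex-linked and prokineticin gene, except that some of these genes are not reported here; clones and predicted genes were skipped in the first 3 parts, and a few genes were added after their values were seen, among them further list members given as examples. The members and lists were chosen with earlier results of these data known. A list's deviation in a heart is the mean over kept members of the level minus the gene's mean of 4 hearts. Alternatives were normexp (offset 50) with quantile normalization, quantile normalization, median scaling, the authors' values, outlier-flagged spots kept, detection on 3 of 4 arrays or no filter, the mean of detected probes, the range in place of the SD, only genes above level 0 and each array left out.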

Additional observations from a re-analysis of the deposited data

Results flagged for a closer look

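A single heart stood apart from the other 3, with a gap that took a share of the gene's range above Dixon's critical value for 4 samples, in 14 of the 224 genes named by rule (6.25%), and chance gives about 1 in 20. Over all kept genes the share was 5.5%. Differences are the log2 level of that heart minus the mean of the other 3.

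WT 4 was apart in 7. It was lower for the clock genes Dbp (-0.61), Klf9 (-1.02) and Bhlhe41 (-1.70), for the calcium pump Atp2a2 (-0.31) and for E4f1 (-0.033), and higher for B2m (0.77) and for Pcna, the replication clamp (0.43). The cardiomyocyte list, which holds Atp2a2, had a deviation of -0.12 in WT 4, but 0.12 after quantile normalization. The Atp2a2 gap may therefore depend on the scaling. WT 1 was apart in 5: it was lower for Dcn (-0.82), Clu (-0.29) and the matrix gene Efemp1 (-0.89), and higher for Bpgm (1.39) and for Igfbp5, an IGF-binding protein (0.22). WT 2 was higher for Cryab, a small heat shock protein (0.36), and for Scgb1a1, a lung secretory protein (0.70). Among 38 lists, heat shock and chaperone genes had WT 1 apart, lower by a mean of -0.21. The list's deviation in WT 1 was -0.16, but -0.013 after quantile normalization and -0.022 after normexp, where WT 2 was lowest, so that gap depends on the scaling.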

How the results depend on the processing

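The 30 genes of highest level shared 24 to 30 with the ranking under every alternative. The 30 of largest SD shared 20 to 29 under all but 3 kinds of alternative: 8 with no filter on dim probes, from 6 (without WT 4) to 26 with each heart left out, and 3 when the smaller SD of 2 probes was ranked, an alternative chosen after seeing the data that tests only genes with 2 kept probes. The count of kept genes, 13738, was 13751 to 14853 under the filters and 27726 with none, which keeps undetected probes by construction; with each heart left out it ran from 13772 to 14669. The 755 genes with 1 heart apart became 499 under median scaling, and the cause was not tested. Lists whose hearts spanned more than 0.5 numbered 11, against 4 after normexp and quantile normalization, 7 on the authors' values and 6 to 9 with each heart left out. Scan range called 0 genes, 4 under median scaling and 0 to 66 with each heart left out, the 66 without WT 2. Of 224 SDs of named genes, 113 moved by over 1.5 times after normexp, 94 on the authors' values, 64 after quantile normalization and 59 without WT 4. Dim genes carry less signal over background, so their SDs are the least certain. The normexp offset of 50 units also narrows the spread of dim genes by construction. No paired analysis was possible because the WT hearts form 1 group and their replicate numbers follow record order.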
